A study of Mus musculus with 2 samples.

Results

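A set of 6 genes of the provisional matrix that coats inflamed tissue was followed through cells grown from mouse bone marrow. They are Fn1 (fibronectin), Vcan (the proteoglycan versican), F13a1 (the A chain of coagulation factor XIII), Tgm2 (tissue transglutaminase), Thbs1 (thrombospondin 1) and Spp1 (osteopontin). All 6 symbols were found among the 47729 genes of both libraries, each on 1 identifier. They were chosen by name, with their levels in these libraries already known, so their levels and ratios are given as descriptions and no test was made. The series has 2 single-cell libraries, 1 per group. In the MSC coculture group, marrow of C57BL/6NCrljOri, H-2b mice received 40 ng/mL of GM-CSF, a growth factor for granulocytes and macrophages, over 5 days of culture, with human mesenchymal stem/stromal cells (MSCs) held in an insert with 0.4 µm pores at 1 MSC to 5 marrow cells, and CD11bmidLy6Cmid cells were sorted. The MSCs had been kept in their inserts for 24 hours before they met the marrow cells. In the group without coculture, marrow of the same strain had the same GM-CSF treatment and no MSCs, and CD11bhiLy6Chi cells were sorted. The protocols also name different media, DMEM for the coculture and RPMI1640 for the culture of marrow cells, and neither the age of the mice nor how many were used is given in the sources used here. Coculture, sort gate, medium and library therefore cannot be told apart in any difference between the groups.

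Fibronectin is a large secreted glycoprotein that cells bind through integrins and lay down as fibrils, and versican is a chondroitin sulfate proteoglycan that binds hyaluronan. Transglutaminases join the side chains of glutamine and lysine, so that fibrin and fibronectin become covalently crosslinked. Factor XIII does this in plasma and clots, and tissue transglutaminase does it at the surface of cells. Thrombospondin 1 and osteopontin are matricellular proteins, secreted regulators that bind matrix and receptors such as CD36, CD47, CD44 and integrins. Monocytes and macrophages are known sources of all 6.

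The coculture library held 3134 barcodes and 29217182 UMIs (unique molecular identifiers, each tagging 1 captured transcript), against 2180 barcodes and 28294186 UMIs without coculture. A barcode counted as a cell when it showed 500 genes or more and mitochondrial UMIs made up no more than 10%, which left 3005 cells in the coculture and 1817 without it. The median depth was 6031 UMIs per cell in the coculture and 7016 without coculture, and 2 kept barcodes occurred in both libraries. Levels are CPM, the UMIs of a gene scaled to a common total of UMIs over the cells named, with exact Poisson 95% intervals. The genes of the sort gate stood at 144 CPM in the coculture and 351 CPM without coculture for Itgam (CD11b), and at 96.9 and 344 CPM for Ly6c2. The libraries differed widely in cell makeup. Markers of 16 cell types, summed per type, stood at 23553 CPM in the coculture and 62.3 CPM without it for eosinophils, at 5717 and 17.5 CPM for basophils or mast cells, at 796 and 4949 CPM for macrophages, at 1671 and 3271 CPM for monocytes, and at 13813 and 46175 CPM for neutrophils. The part of this makeup in the ratios over all cells was not tested, and levels by cluster are given beside them. Clusters were made from both libraries together with the 6 genes left out of the clustering, and are called X-like only from markers.

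Over all kept cells, the crosslinking enzymes and Thbs1 were higher in the coculture, Spp1 was lower, and Fn1 and Vcan each stood within 2-fold of their level in the other library. All 6 passed 10 CPM in both libraries. Tgm2 was at 324 CPM (317 to 330) in the coculture and 69.2 CPM (66.2 to 72.4) without coculture, 4.67-fold higher, a log2 ratio of 2.22 (2.15 to 2.30). F13a1 was at 97.5 CPM (94.0 to 101) in the coculture and 38.8 CPM (36.6 to 41.2) without it, a log2 ratio of 1.33 (1.23 to 1.43) that became 1.98 when every cell was weighted alike. These intervals cover counting error only and say nothing of the spread between cultures.

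Thbs1 was at 1370 CPM (1357 to 1384) in the coculture and 633 CPM (623 to 642) without coculture, a log2 ratio of 1.12 (1.09 to 1.14). The Thbs1 ratio dropped under 2-fold, to 0.97 on the log2 scale, when libraries were scaled by TMM factors, and to 0.68 when every cell was weighted alike. Spp1 was at 563 CPM (555 to 572) in the coculture and 1150 CPM (1137 to 1162) without it, a log2 ratio of -1.03 (-1.06 to -1.002). Fn1 was at 307 CPM (301 to 313) in the coculture and 297 CPM (290 to 303) without coculture, a log2 ratio of 0.05 (0.01 to 0.09) whose sign turned to -0.093 with TMM factors. Vcan was at 29.6 CPM (27.7 to 31.7) in the coculture and 35.1 CPM (32.9 to 37.3) without it, a log2 ratio of -0.24 (-0.38 to -0.11) that turned to 0.0031 when every cell was weighted alike. So 3 of the 6 genes were at least 2-fold higher in the coculture, 1 was at least 2-fold lower and 2 were between. Of the 8668 genes at 10 CPM or more in either library, 12.7% were at least 2-fold higher in the coculture and 11.7% at least 2-fold lower, 24.4% together. These were 1104 and 1010 genes, or 908 and 1262 genes with TMM factors. Nothing is read from the count of 6 against that background, since the genes were chosen with these ratios known.

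**Figure D1:**
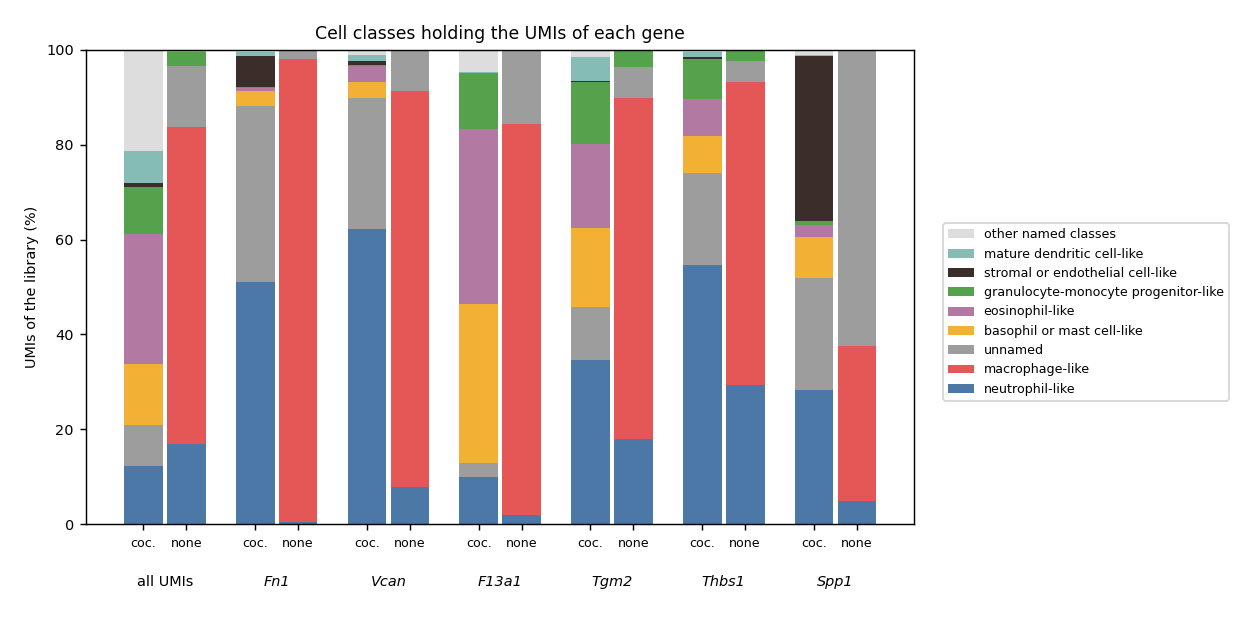
Share of each gene's UMIs (vertical axis, % of the library) held by each cell class, with the coculture bar (coc.) left of the bar without coculture (none) for each gene, and all UMIs of the library as the first pair. In the coculture 51.1% of Fn1 UMIs lay in neutrophil-like cells and 37.0% in unnamed cells, against 97.8% in macrophage-like cells without coculture.

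Near-equal Fn1 totals came from different cells in the 2 libraries. In the coculture, 51.1% of Fn1 UMIs lay in neutrophil-like cells and 37.0% in cluster 11, which stayed unnamed. Without coculture 97.8% lay in the macrophage-like cluster 15, which had no cell in the coculture. Vcan followed the same division, with 62.3% of its UMIs in neutrophil-like cells and 27.6% in cluster 11 in the coculture, against 83.6% in macrophage-like cells without coculture. These classes held unequal parts of all UMIs: neutrophil-like cells had 12.2% of those of the coculture library, and macrophage-like cells had 66.8% of those of the library without coculture. The coculture cells concerned were nearly all in 2 clusters. Cluster 1 (387 coculture cells, led by Cxcl3, Arg1 and Retnlg) and cluster 11 (129 coculture cells) together held 17.2% of the coculture cells and 20.2% of their UMIs, but 88.1% of Fn1 UMIs, 89.3% of Vcan UMIs and 73.2% of Thbs1 UMIs. They held 45.1% of Tgm2 UMIs, 51.9% of Spp1 UMIs and 12.6% of F13a1 UMIs. How these UMIs split between the 2 clusters depended on the cluster resolution: at a resolution of 0.4 neutrophil-like cells held 88.2% of coculture Fn1 UMIs.

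The names of these cells have limits. In cluster 1, 11 of the 12 neutrophil markers stood at 20 CPM or more, and 7 were at least 2-fold higher than in all other cells. The cluster had S100a9, a calcium-binding protein abundant in neutrophils, at 26226 CPM, and only 1 of its 10 leading genes was a neutrophil marker. It also held Csf1r, the receptor for the macrophage growth factor CSF1, at 273 CPM, Ly6c2 at 171 CPM and Arg1, the arginine-degrading enzyme arginase 1, at 4336 CPM. No cluster was monocyte-like: in cluster 1, 4 of the 10 monocyte markers stood at 20 CPM or more, led by Chil3. Cluster 11 was led by Igha, C1qa and Ptx3, had 2 dendritic and 2 plasma cell markers among its 10 leading genes and therefore has no name. Names were sought over the cells of both libraries together, but the cells of cluster 11 differed between libraries. The complement gene C1qa, a macrophage marker, was at 1083 CPM in the coculture and 57.0 CPM without coculture. The chemokine gene Ccl17, a dendritic cell marker, was at 24.7 CPM in the coculture and 1659 CPM without it.

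**Figure D2:**
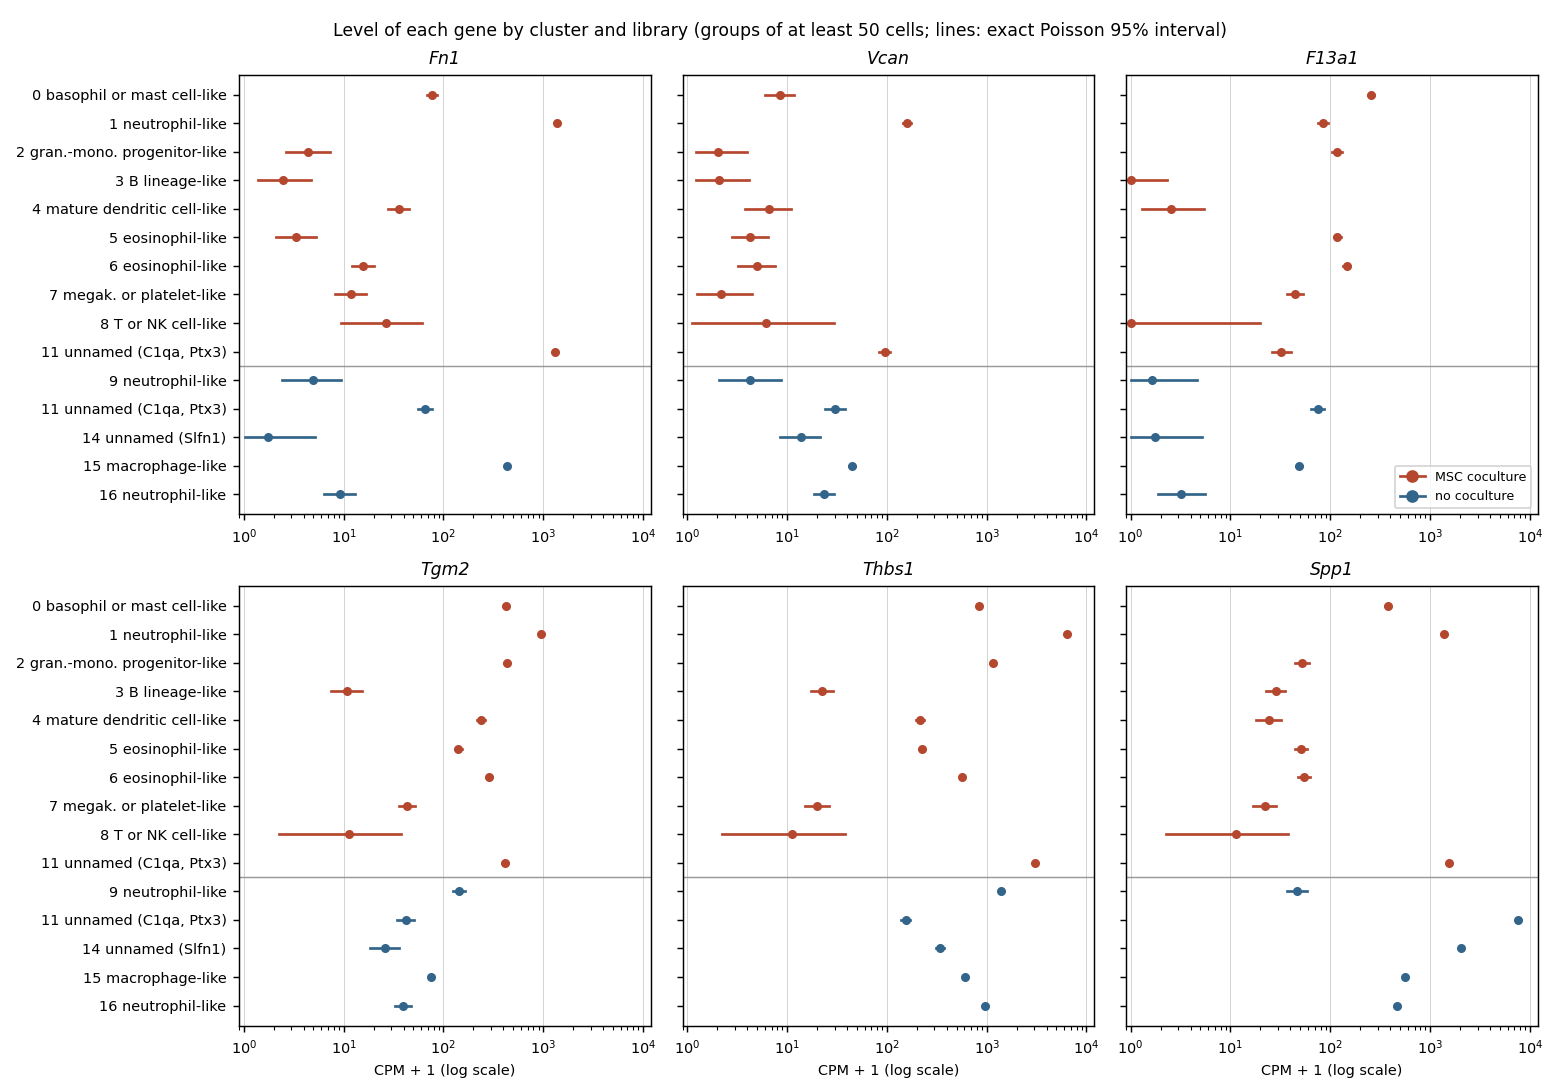
Level of each gene (horizontal axis, CPM + 1, log scale) in 15 groups of at least 50 cells, each 1 cluster in 1 library (vertical axis), with coculture groups in the upper block; points are levels and lines exact Poisson 95% intervals. Fn1 stood above 1000 CPM only in coculture clusters 1 and 11, whereas F13a1 was highest in the basophil or mast cell-like cluster 0.

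The orders of levels given here are among groups of at least 50 cells, unless fewer are named. Fn1 lies on chromosome 1 (71585520 to 71653200, minus strand, GRCm38). Its highest levels were 1361 CPM (1322 to 1401) in coculture cluster 1 and 1316 CPM (1272 to 1362) in coculture cluster 11, whose intervals overlap. The 9 stromal or endothelial cell-like cells of the coculture (cluster 13) stood above both, at 2558 CPM (2354 to 2774). The macrophage-like cells without coculture came next, at 435 CPM (425 to 444). All other groups of 50 or more cells were at 76.7 CPM or less, down to 1.45 CPM in B lineage-like cells of the coculture and 0.757 CPM in cluster 14 (led by Slfn1) without coculture. Fn1 was uneven within its own cells. In cluster 1 the median cell held 3 Fn1 UMIs and the highest 148, and the highest 38 cells held 52.7% of the cluster's Fn1 UMIs. In macrophage-like cells the median was 2 and the highest 111, and the highest 60 cells held 50.7%. At a cluster resolution of 1.2 the macrophage-like cells divided into 484 cells led by Wfdc17, Mrc1 and Gpnmb with Fn1 at 483 CPM, and 109 cells that also had mitosis genes among their leaders (Anln, Bub1b, Racgap1) with Fn1 at 277 CPM.

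Vcan lies on chromosome 13 (89655312 to 89742509, minus strand). Its order of groups began as that of Fn1 did, with 159 CPM (145 to 173) in cluster 1, 94.7 CPM (83.1 to 108) in coculture cluster 11 and 43.9 CPM (40.9 to 47.0) in macrophage-like cells without coculture, none of whose intervals overlap. In the cells without coculture it was also at 29.6 CPM (22.9 to 37.6) in cluster 11 and 22.5 CPM (17.6 to 28.4) in neutrophil-like cluster 16, which overlap. An antisense gene in this span, Gm4117, had 36 UMIs in the coculture and 195 without coculture. The sources used here do not say whether counting used the strand, so reads of the 2 genes may not be told apart.

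F13a1 lies on chromosome 13 (36867178 to 37050244, minus strand). Its cells differed from those of Fn1 in the coculture: 36.8% of its UMIs lay in eosinophil-like cells, 33.7% in basophil or mast cell-like cells, 11.9% in granulocyte-monocyte progenitor-like cells and 10.0% in neutrophil-like cells. Without coculture 82.5% lay in macrophage-like cells. By level it stood highest in basophil or mast cell-like cluster 0, at 254 CPM (239 to 271), then at 146 CPM (133.8 to 159) in eosinophil-like cluster 6. Eosinophil-like cluster 5, at 117 CPM (107 to 128), and progenitor-like cluster 2, at 116 CPM (104 to 129), did not differ beyond their intervals. Neutrophil-like cells of the coculture, as a class, were at 80.3 CPM (71.2 to 90.2). Without coculture F13a1 was highest in cluster 11, at 73.8 CPM (63.0 to 85.8), above macrophage-like cells at 48.0 CPM (44.9 to 51.3). B lineage-like cluster 3 held no F13a1 UMI, which allows at most 1.34 CPM by the exact interval. At a resolution of 1.2 the basophil or mast cell-like cells divided into 94 cells led by Mcpt8, Gzmb and Tpsg1 and 325 cells led by Tpsb2, Akr1c18 and Cd200r3. F13a1 was at 236 CPM in the 94 cells and 268 CPM in the 325, with overlapping intervals. Fn1 differed more, at 181 CPM in the 94 cells and 7.28 CPM in the 325. The neutrophil marker S100a8 was at 6648 CPM in the 94 cells and 20.4 CPM in the 325.

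Tgm2 lies on chromosome 2 (158116402 to 158146436, minus strand), where the protein-coding gene Rprd1b of the other strand, with 881 UMIs in the coculture and 635 without it, overlaps its span. Of the 6 genes it had the ratio farthest from 1 over all cells. Its coculture UMIs were spread over neutrophil-like cells (34.7%), eosinophil-like cells (17.6%), basophil or mast cell-like cells (16.7%), progenitor-like cells (13.3%), cluster 11 (11.1%) and mature dendritic cell-like cells (5.00%). Tgm2 stood at 956 CPM (923 to 990) in cluster 1, followed by 429, 419 and 414 CPM in clusters 2, 0 and 11 of the coculture, whose intervals overlap. Mature dendritic cell-like cells of the coculture had 238 CPM (217 to 261), with 1.52 CPM of F13a1. Without coculture 71.9% of Tgm2 UMIs lay in macrophage-like cells, at 74.5 CPM (70.6 to 78.6). There its highest level was 143 CPM (125 to 163) in neutrophil-like cluster 9, led by the granule genes Ltf, Camp and Ngp.

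Thbs1 lies on chromosome 2 (118111876 to 118127133, plus strand). It stood at 6387 CPM (6302 to 6473) in cluster 1 and 3087 CPM (3019 to 3157) in coculture cluster 11, where medians were 32 and 30 UMIs per cell. Without coculture its highest level was in neutrophil-like cluster 9, at 1385 CPM (1326 to 1445), above 958 CPM (924 to 993) in neutrophil-like cluster 16 and 606 CPM (595 to 617) in macrophage-like cells. Progenitor-like cells of the coculture had 1168 CPM (1130 to 1208). Lymphoid and platelet-lineage groups of the coculture were low, at 21.5 CPM in B lineage-like cluster 3, 19.2 CPM in megakaryocyte or platelet-like cluster 7 and 10.3 CPM in T or NK cell-like cluster 8.

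Spp1 lies on chromosome 5 (104435118 to 104441050, plus strand), and among groups of at least 50 cells it alone of the 6 had its highest level without coculture. There cluster 11 stood at 7594 CPM (7481 to 7708) and cluster 14 at 2047 CPM (1970 to 2125), ahead of 1549 CPM (1500 to 1598) in cluster 11 and 1378 CPM (1339 to 1418) in cluster 1 of the coculture. Macrophage-like cells without coculture had 566 CPM (555 to 577) and basophil or mast cell-like cells of the coculture 375 CPM (356 to 395). The 81 cells of cluster 11 held 53.8% of the Spp1 UMIs without coculture, and macrophage-like cells 32.9%. At a cluster resolution of 0.4, unnamed cells held 5.56% of them, against 62.3% at the resolution used here. Within cluster 11 without coculture the median cell had 26 Spp1 UMIs and the highest 2267.

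A group of 9 coculture cells decided much of the Spp1 total there. Cluster 13, stromal or endothelial cell-like by 7 of 11 markers and led by Timp1, Sparc and Ctgf, held 5700 of the 16391 Spp1 UMIs of the coculture, 34.8%, at 25005 CPM (24360 to 25663). The cells held 2232, 1504, 864, 533, 278, 131, 84, 74 and 0 Spp1 UMIs, so the 2 highest cells carried most of them. The same 9 cells held 583 Fn1 UMIs, 6.53% of the coculture total, with between 9 and 150 in each cell, and 8 Tgm2 UMIs. The matrix genes Sparc and Bgn stood there at 3281 and 2000 CPM and the collagen genes Col1a2 and Col1a1 at 1110 and 483 CPM, whereas Ptprc, the pan-leukocyte marker CD45, had no UMI. Mouse H2-K1 and H2-D1, which code for MHC class I, were at 390 and 338 CPM. Human transcripts were not analysed here. Without the 9 cells Spp1 was at 370 CPM (363 to 378) in the coculture, against 1150 CPM without coculture, 3.104-fold lower (log2 ratio -1.63), and the Fn1 log2 ratio was -0.037 (-0.08 to 0.007). The other ratios moved little, to -0.24 for Vcan, 1.34 for F13a1, 2.23 for Tgm2 and 1.12 for Thbs1.

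**Figure D3:**
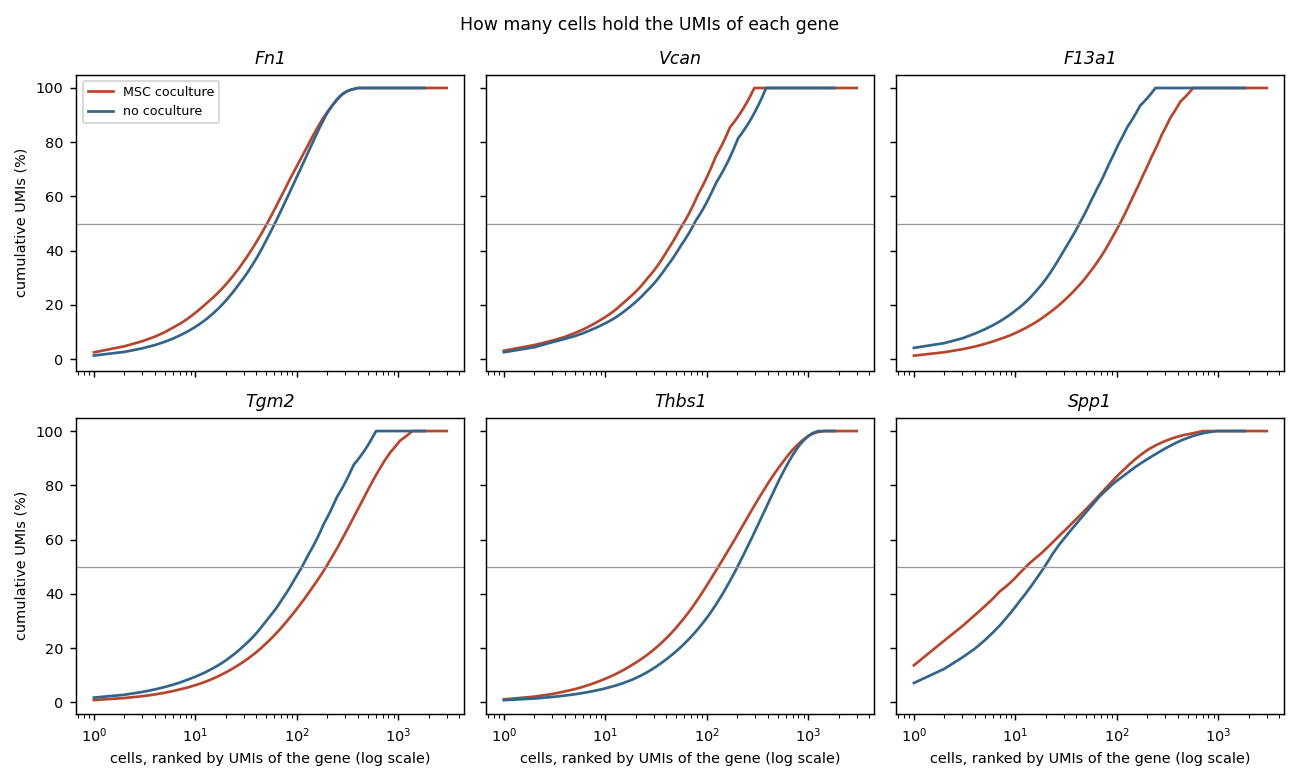
Cumulative share of each gene's UMIs (vertical axis, %) over the cells of a library ranked from most to fewest UMIs of that gene (horizontal axis, number of cells, log scale); the grey line marks 50%. In the coculture 13 cells held 50% of the Spp1 UMIs, against 20 cells without coculture, while 196 and 113 cells held 50% of the Tgm2 UMIs.

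In both libraries a small part of the cells held 50% of each gene's UMIs. At least 1 UMI was seen more widely, for Thbs1 in 1396 coculture cells and 1237 cells without coculture. Depth also differed between cells, and the same numbers for all UMIs are not given here. In the coculture 51 cells carried 50% of Fn1 UMIs, 59 of Vcan, 108 of F13a1, 196 of Tgm2, 131 of Thbs1 and 13 of Spp1. Without coculture the numbers were 61 cells for Fn1, 76 for Vcan, 43 for F13a1, 113 for Tgm2, 202 for Thbs1 and 20 for Spp1. Because the coculture library has more cells, the share held by the highest 1% of its cells was also taken. That share was 36.0% in the coculture and 19.8% without coculture for Fn1, 32.6% and 19.7% for Vcan, 19.4% and 8.19% for Thbs1, and 63.0% and 48.2% for Spp1. It was close for Tgm2, at 14.99% in the coculture and 14.3% without it, and lower in the coculture for F13a1, at 21.5% against 27.3% without coculture. To compare shares of cells at one depth, each cell was thinned at random to 2000 UMIs, which left out 265 coculture cells and 140 cells without coculture. Tgm2 was then seen in 28.1% of coculture cells (exact 26.4 to 29.8) and 9.18% of cells without coculture (7.84 to 10.7), and F13a1 in 10.3% (9.14 to 11.5) and 2.98% (2.22 to 3.91). The shares ran the other way for Spp1, at 12.3% in the coculture and 32.1% without it, and for Thbs1, at 36.5% and 49.9%. Intervals overlapped for Fn1, at 10.8% in the coculture (9.70 to 12.1) and 12.8% without coculture (11.3 to 14.5), and for Vcan, at 4.09% and 4.47%. For Thbs1 and Fn1 the share goes against the CPM, so no order is read from it. Unthinned shares were 45.8% in the coculture and 33.2% without coculture for Tgm2, 18.8% and 13.2% for F13a1, 23.2% and 52.1% for Spp1, 46.5% and 68.1% for Thbs1, 13.4% and 21.7% for Fn1, and 9.78% and 21.1% for Vcan. B lineage-like cluster 3, with a median of 2792 UMIs per cell, gives the level that free RNA could leave in cells not known for these genes. Its thinned shares were 0.141% for Fn1, 0.422% for Vcan, 0% for F13a1, 0.985% for Tgm2, 1.55% for Thbs1 and 2.11% for Spp1, all below those over the whole library.

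**Figure D4:**
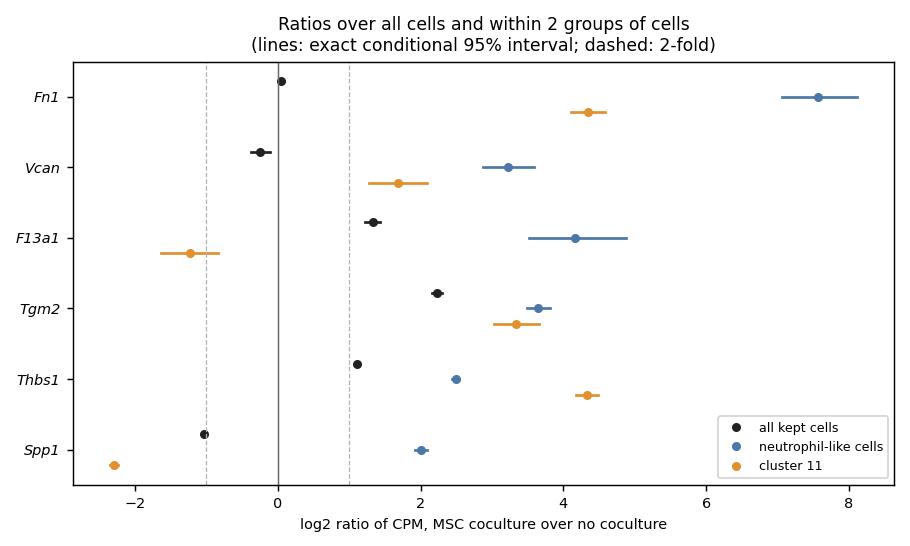
Log2 ratio of CPM, MSC coculture over no coculture (horizontal axis), for each gene over all kept cells, within neutrophil-like cells and within cluster 11; lines are exact conditional 95% intervals and dashed lines mark 2-fold. In neutrophil-like cells, which do not include unnamed cluster 14, all 6 ratios are at least 2-fold higher. In cluster 11 F13a1 and Spp1 are lower in the coculture.

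Neutrophil-like cells were the only named class with more than 50 cells in both libraries, and within them all 6 genes were higher in the coculture. The 410 coculture cells were mostly of cluster 1 and the 748 cells without coculture mostly of cluster 16, so different clusters are set side by side. Unnamed cluster 14, with 346 cells without coculture, is outside the class, though the neutrophil markers Asprv1 and Csf3r were among its 10 leading genes. Its Spp1 level, given above, was higher than in neutrophil-like cells of either library, and its Fn1 level was lower. Ratios with cluster 14 included are not given here. Fn1 was at 1290 CPM (1253 to 1328) in the coculture and 6.81 CPM (4.66 to 9.62) without coculture, a log2 ratio of 7.56 (7.06 to 8.11). F13a1 was at 80.3 CPM in the coculture and 4.47 CPM without it (log2 ratio 4.17), and Tgm2 at 923 and 73.7 CPM (log2 ratio 3.65). Vcan was at 152 CPM in the coculture and 16.2 CPM without coculture (log2 ratio 3.23), Thbs1 at 6150 and 1095 CPM (log2 ratio 2.49), and Spp1 at 1307 and 326 CPM (log2 ratio 2.00). Of 7389 genes measured in these cells, 11.8% were at least 2-fold higher in the coculture and 6.39% at least 2-fold lower, 18.2% together. The cells differed in identity as well: summed neutrophil markers stood at 66352 CPM in cluster 1 and 167650 CPM in cluster 16, summed macrophage markers at 831 and 612 CPM, Csf1r at 273 and 53.6 CPM, and Arg1 at 4336 CPM in cluster 1 with no UMI in cluster 16. The part of these differences in the 6 ratios was not tested.

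Cluster 11 gave a mixed picture, with 129 coculture cells and 81 without coculture. Fn1 was at 1316 CPM in the coculture and 64.9 CPM without coculture, a log2 ratio of 4.34 (4.10 to 4.59). Thbs1 was at 3087 CPM in the coculture and 153 CPM without it (log2 ratio 4.33), Tgm2 at 414 and 41.1 CPM (log2 ratio 3.33) and Vcan at 94.7 and 29.6 CPM (log2 ratio 1.68). F13a1 was lower in the coculture, at 31.4 CPM against 73.8 CPM without coculture (log2 ratio -1.23, -1.64 to -0.84), and so was Spp1, at 1549 CPM against 7594 CPM (log2 ratio -2.29). Of 8132 genes measured in this cluster, 13.3% were at least 2-fold higher in the coculture and 10.2% at least 2-fold lower, 23.5% together. Arg1 was at 1720 CPM in the coculture cells of the cluster and had no UMI in those without coculture.

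Several of the 6 transcripts were found together in single cells of both libraries. As deposited, 52.2% of cells of cluster 1 and 58.9% of coculture cells of cluster 11 held at least 4 of the 6 genes, against 56.3% of macrophage-like cells without coculture, of which 83 of 606 cells held all 6. Median depth differed between these groups, at 6821 and 17098 UMIs per cell in clusters 1 and 11 of the coculture and 24180 UMIs in the macrophage-like cells. After thinning to 2000 UMIs, 30.2% of cells of cluster 1 and 24.4% of coculture cells of cluster 11 held at least 4 of the 6 genes. The share was 3.18% in macrophage-like cells without coculture, 1.68% in basophil or mast cell-like cells of the coculture and 1.33% in cluster 11 without coculture. None of the 6 was seen in 95.2% of B lineage-like cells of cluster 3. Across the 129 coculture cells of cluster 11, log levels of Fn1 and Thbs1 had a Pearson r of 0.66, Fn1 and Arg1 0.62, Thbs1 and Arg1 0.67, Vcan and Thbs1 0.56, and Tgm2 and Thbs1 0.54. Across the 387 cells of cluster 1 these were 0.45 for Fn1 and Thbs1, 0.49 for Fn1 and Arg1, 0.31 for Thbs1 and Arg1, 0.17 for Vcan and Thbs1, and 0.40 for Tgm2 and Thbs1. Not all pairs rose together. Spp1 had an r of 0.11 with Vcan, 0.09 with F13a1 and 0.05 with Tgm2 in coculture cluster 11. In cluster 1 the same pairs had -0.02, 0.03 and 0.08. In the 606 macrophage-like cells without coculture the r of Fn1 and Thbs1 was 0.24. The r of Fn1 with S100a9 was -0.26 in cluster 1 and 0.21 in coculture cluster 11. With Csf1r it was 0.40 and 0.03. These are descriptions over cells of 1 library each, which share that library and differ in depth.

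Outside clusters 1, 11 and 13, most coculture Fn1 UMIs lay in a few cells that also held Arg1, chiefly those of 3 clusters. Over the 8 other coculture clusters of at least 50 cells, the 85 cells with an Arg1 UMI, 3.57% of cells, held 83.6% of the Fn1 UMIs and 55.1% of the Vcan UMIs. Fn1 stood at 275 CPM (248 to 303) in these 85 cells and at 3.72 CPM (2.94 to 4.65) in the 2293 cells without an Arg1 UMI. Of the 392 Fn1 UMIs in cells with Arg1, 274 were in the basophil or mast cell-like cluster 0, 63 in the mature dendritic cell-like cluster 4 and 48 in the eosinophil-like cluster 6, where cells with Arg1 held 95.1%, 91.3% and 87.3% of Fn1 UMIs. The other 5 clusters held few Fn1 UMIs. There cells with Arg1 held 3 of 10 Fn1 UMIs in eosinophil-like cluster 5, 1 of 28 in cluster 7, none of 10 in cluster 2, none of 4 in cluster 3, and 3 of 5, all in 1 cell, in cluster 8. The median depth was 15803 UMIs in the cells with Arg1 and 5204 UMIs in those without. Pooled over the 8 clusters, F13a1 was at 114 CPM in cells with Arg1 and 111 CPM in cells without it, which held 93.4% of its UMIs. By cluster, F13a1 was lower in cells with Arg1 in cluster 0, at 150 CPM (118 to 188) against 270 CPM (253 to 289). In cluster 2 it was at 21.0 CPM in 5 cells with Arg1, against 119 CPM. Intervals overlapped in cluster 5 (156 and 115 CPM), cluster 6 (130 and 147 CPM) and cluster 7 (65.6 and 43.1 CPM). Over the pooled clusters, Tgm2 was higher in cells with Arg1, at 384 CPM (353 to 418) against 219 CPM (213 to 226) in cells without it. By cluster, the Tgm2 intervals lay apart in cluster 0 only, at 670 CPM (599 to 746) against 381 CPM (360 to 403). In cluster 2 Tgm2 was at 316 CPM in cells with Arg1 and 433 CPM in those without, with overlapping intervals. Cells without Arg1 held 89.2% of Tgm2 UMIs. Pooled in the same way, Thbs1 was at 1311 and 399 CPM, and Spp1 at 364 and 78.7 CPM. Both were higher beyond their intervals in cells with Arg1 of clusters 0, 4, 5 and 6. In cluster 2, with overlapping intervals, Thbs1 was at 947 and 1176 CPM and Spp1 at 42.1 and 51.2 CPM. The cells without Arg1 included 823 of B lineage-like cluster 3, and the part of cell makeup in the pooled values was not tested.

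In the basophil or mast cell-like cluster the 27 cells with an Arg1 UMI had Fn1 at 554 CPM (491 to 624) and held 74.9% of its S100a9 UMIs. They had F13a1 at 150 CPM, Tgm2 at 670 CPM, Thbs1 at 2517 CPM and Spp1 at 745 CPM. The 400 cells without Arg1 had Fn1 at 4.295 CPM (2.35 to 7.21) and F13a1 at 270 CPM (253 to 289). Their Tgm2 was at 381 CPM, Thbs1 at 579 CPM and Spp1 at 319 CPM. In this cluster the median depth was 16579 UMIs in cells with Arg1 and 6356.5 UMIs in those without, and S100a9 was at 14980 and 761 CPM. Droplets holding more than 1 cell were not removed. Scrublet, a program that looks for them, called 5 coculture cells and no cell without coculture. That call does not show how many such droplets there were. The part of such droplets in these values was not tested.

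Across the 15 groups of at least 50 cells, log2(CPM + 5) of Fn1 and Vcan had a Pearson r of 0.86, Tgm2 and Thbs1 0.79, Vcan and Spp1 0.78, and F13a1 and Tgm2 0.63. F13a1 and Vcan had an r of 0.16. Over the same groups, which share 2 libraries, the genes most like each of the 6 were sought among 5761 genes at 50 CPM or more in at least 1 group. For Fn1 they were Itga1 (0.93), an integrin chain that pairs into a collagen receptor, Tns4 (0.93) and B3galt2 (0.92). For Vcan they were Ctsl (0.93), the lysosomal protease cathepsin L, Cd164 (0.93) and Slc2a1 (0.92), a glucose transporter. For F13a1 they were Sc5d (0.93), a sterol synthesis enzyme, Higd1a (0.90) and P4hb (0.89), protein disulfide isomerase. For Tgm2 they were the glycolytic enzymes Pgk1 (0.94) and Gpi1 (0.91), and Ero1l (0.89), an oxidase of the endoplasmic reticulum. For Thbs1 they were Dmxl2 (0.94), Plin2 (0.93), a lipid droplet coat protein, and Prdx5 (0.91). For Spp1 they were Ccl4 (0.93), a chemokine, Fam20c (0.92), a kinase of secreted proteins known to phosphorylate osteopontin, and Clec4n (0.91), a C-type lectin.

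RefSeq (GRCm38.p6) gave the upstream 250 bases of Vcan, F13a1 and Spp1, shown because F13a1 differed from Vcan and Spp1 in the coculture cells that held it. They are read 5′ to 3′ on the gene's strand, end at the base before the start site, and have the core GAGGAA of the myeloid factor PU.1 in capitals wherever it occurs. Vcan spans chr13:89742513-89742762 and F13a1 spans chr13:37050245-37050494, both on the minus strand, and Spp1 spans chr5:104434861-104435110 on the plus strand.
Vcan: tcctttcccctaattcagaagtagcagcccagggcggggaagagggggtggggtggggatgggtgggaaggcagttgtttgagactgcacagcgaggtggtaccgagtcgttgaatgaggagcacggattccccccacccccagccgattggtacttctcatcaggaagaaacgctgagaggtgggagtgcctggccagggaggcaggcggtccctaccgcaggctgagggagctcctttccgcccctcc
F13a1: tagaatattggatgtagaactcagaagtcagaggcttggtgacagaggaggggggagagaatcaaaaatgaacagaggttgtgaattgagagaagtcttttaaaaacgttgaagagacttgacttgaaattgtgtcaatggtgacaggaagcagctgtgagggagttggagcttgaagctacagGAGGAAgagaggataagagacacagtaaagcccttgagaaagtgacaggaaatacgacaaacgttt
Spp1: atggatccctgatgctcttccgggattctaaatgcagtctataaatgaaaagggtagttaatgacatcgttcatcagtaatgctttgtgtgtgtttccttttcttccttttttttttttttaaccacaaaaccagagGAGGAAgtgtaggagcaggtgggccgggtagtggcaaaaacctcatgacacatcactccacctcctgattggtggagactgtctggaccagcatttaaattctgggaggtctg
Searched on both strands, GAGGAA occurred once for F13a1, at position -66, once for Spp1, at position -113, and not in the window of Vcan. Windows of the same length held it in 23.3% of 32851 promoters. The core of GATA factors was searched as AGATAA, which 9.99% of promoters hold. The core of AP-1 was searched as TGANTCA, which 6.75% hold. Neither was in any of the 3 windows. Nothing follows about the factors from matched or unmatched letters.

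**Figure D5:**
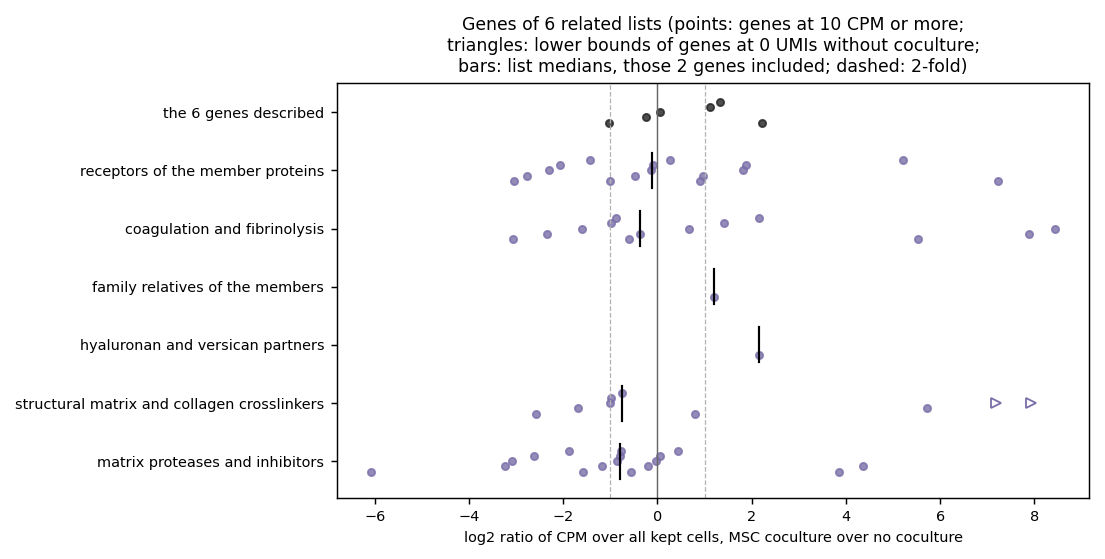
Log2 ratio of CPM over all kept cells, MSC coculture over no coculture (horizontal axis), for the 6 genes and for the measured genes of 6 lists of receptors, coagulation, relatives and matrix (vertical axis); triangles are lower bounds and bars list medians. Receptors have a median of -0.12 and proteases and inhibitors a median of -0.79, against 0.03 over all 8668 measured genes.

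Genes that act with the 6 were described from 6 lists, of which 57 genes in all reached 10 CPM in either library. Among receptors of the 6 proteins 16 of 20 were measured: 4 were at least 2-fold higher in the coculture, 6 were 2-fold or more lower, and 6 lay in the range between. Their median was -0.12 on the log2 scale. Itgb3, an integrin chain for fibronectin and osteopontin, was at 59.5 CPM in the coculture and 0.396 CPM without coculture (log2 ratio 7.23), with 88.2% of its coculture UMIs in megakaryocyte or platelet-like cells. Adgrg1, an adhesion receptor known to bind tissue transglutaminase, was at 92.3 CPM in the coculture and 2.48 CPM without it (log2 ratio 5.22). Lrp1, an endocytic receptor of thrombospondin 1, was at 32.9 CPM in the coculture and 273 CPM without coculture (log2 ratio -3.05), and Cd36 was at 2.99 and 20.3 CPM (log2 ratio -2.77). In the library without coculture 87.3% of Lrp1 UMIs and 92.2% of Cd36 UMIs lay in macrophage-like cells.

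In coagulation and fibrinolysis 13 of 25 genes were measured, 5 higher, 3 lower and 5 between, with a median of -0.38. F2r, a thrombin receptor, was at 42.6 CPM in the coculture and 0.180 CPM without it, and the protease inhibitor Serpine2 at 56.4 and 1.22 CPM. F7, coagulation factor VII, was at 16.3 CPM in the coculture and 138 CPM without coculture (log2 ratio -3.08). Only 1 of 18 family relatives was measured, the transglutaminase Tgm1, at 14.1 CPM in the coculture and 6.12 CPM without it. Only 1 of 18 hyaluronan and versican partners was measured, the hyaluronan receptor Hmmr, which is also a gene of the mitotic spindle, at 63.8 CPM in the coculture and 14.4 CPM without coculture.

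Of 28 structural matrix and collagen-crosslinking genes 9 were measured, 3 higher, 3 lower and 3 between, with a median of -0.75. Sparc was at 26.4 CPM and Bgn at 15.7 CPM in the coculture, against no UMI of either without coculture, at least 245-fold and 146-fold higher when set against a floor of 3 UMIs in that library. The stromal or endothelial cell-like cells held 97.4% of Sparc UMIs and 99.8% of Bgn UMIs. Plod2, a lysyl hydroxylase that prepares collagen for crosslinking, was at 15.1 CPM in the coculture and 0.288 CPM without it (log2 ratio 5.71), and Lgals3, galectin 3, at 877 and 5267 CPM (log2 ratio -2.59). Of 21 matrix proteases and inhibitors 17 were measured, 2 higher, 7 lower and 8 between, with a median of -0.79. The cathepsins Ctsk and Ctss were at 0.481 and 216 CPM in the coculture, against 32.5 and 2048 CPM without coculture, where 94.6% and 96.0% of their UMIs lay in macrophage-like cells. The inhibitors Timp1 and Timp3 were at 38.2 and 33.9 CPM in the coculture, against 1.87 and 2.34 CPM without coculture. Stromal or endothelial cell-like cells held 97.1% of coculture Timp1 UMIs, and megakaryocyte or platelet-like cells held 74.6% of coculture Timp3 UMIs.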

How the data were processed

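Single-cell 3′ UMI counts of 2 libraries, 1 per group, were used as the authors deposited them: raw whole-number counts per gene and barcode, not normalized, from software version 3.1.0 per the file headers. Reads were handled with bcl2fastq and Cell Ranger on mm10, per the submitters' processing notes. Which gene annotation was used, and how cells were called, is not given in the sources used here. Symbols came from the files. GENCODE M21 (GRCm38) listed 47310 of the 47729 identifiers and gave the positions. A 3′ count cannot tell isoforms apart.

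Kept cells (at least 500 genes, at most 10% mitochondrial UMIs) were scaled to 10000 UMIs and log transformed. From 2000 variable genes without the 6 described, 30 principal components and 15 neighbours gave Leiden clusters at a resolution of 0.8 (scanpy 1.11.5). A cluster took the name of the marker set with the highest mean fold, given at least 3 of its markers 2-fold higher and no other set better placed among the 10 leading genes; this scoring was set after the data were seen. CPM from summed counts, exact intervals and ratios were computed with scipy 1.17.1, on code tested on simulated data, and TMM factors with edgeR 4.0.16. The floor of 3 UMIs was 0.103 CPM in the coculture and 0.108 CPM without coculture. With 1 library per group there was no test. Intervals cover counting error only. The 6 genes and all lists were chosen with earlier results of these data known. Named list genes were up to 4 per list with the largest ratio in either direction, and the 3 most like each of the 6 genes.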

Additional observations from a re-analysis of the deposited data

How the results depend on the processing

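No paired analysis was possible because each group has 1 library and no replicate. With TMM factors, which moved the median over measured genes from 0.03 to -0.13, log2 ratios over all cells were -0.093 for Fn1 (sign turned), -0.38 for Vcan, 1.19 for F13a1, 2.08 for Tgm2, 0.97 for Thbs1 (under 2-fold) and -1.17 for Spp1. With the mean of per-cell CPM they were 0.34 for Fn1, 0.0031 for Vcan (sign turned), 1.98 for F13a1, 0.68 for Thbs1 (under 2-fold) and -1.27 for Spp1. Without the 5% of cells with most UMIs they were 1.51 for F13a1, 2.34 for Tgm2, 1.05 for Thbs1 and -1.001 for Spp1. Under the stricter cell filter (1000 genes, 5% mitochondrial UMIs) the Thbs1 ratio was 1.15. Without the 9 cells of cluster 13, an alternative chosen after seeing the data, Fn1 was -0.037 (sign turned) and Spp1 -1.63. The cause was not tested. The main bound of 10 CPM measured 8668 genes, with 1104 past 2-fold upward and 1010 downward. A bound of 50 CPM measured 3465 genes, with 403 upward and 513 downward. Counting every gene with 10 UMIs measured 16315 genes, with 3824 upward and 1898 downward. The balance between the directions thus changed with the bound, and the reason was not tested.

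Of 36 alternatives for class shares 12 stayed within counting error and 24 moved, 2 by over 1.5 times. All 36 for shares of cells moved with the depth of thinning. Of 24 for list counts 8 moved, all to fewer genes. Of 5 for cluster levels 3 moved, none by over 1.5 times. No spread between cultures can be given, and genes seen in few cells rest on few droplets.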
